A study of Mus musculus with 6 samples.

Results

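The Slc30a genes encode the ZnT zinc exporters, and their transcripts were followed here in Paneth cells (PCs), the secretory cells at the base of the small intestinal crypts. All 10 genes named Slc30a1 to Slc30a10 were taken by symbol from the 55414 genes of the count table. At least 1 read was counted for 8 of them, and 6 were among the 9749 genes that passed the filter on low counts. The libraries came from purified PCs of wild-type mice (C57BL/6J in the study's methods), sorted by FACS from the small intestine. In the St_TNF group, 3 mice had eaten standard chow for 7 weeks. In the ZincDef_TNF group, 3 mice had eaten zinc depleted chow for 7 weeks. All 6 mice had also received TNF, an inflammatory cytokine, 3 hours before sampling, and libraries without TNF were not used here. The labels give 3 libraries a group while the design text speaks of 4. Age and sex are not given for these mice, and the methods describe 1 mouse per sample, so p-values describe the spread between these mice.

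ZnT proteins move zinc out of the cytosol, either across the plasma membrane or into organelles and vesicles, whereas the ZIP proteins of the Slc39a family bring zinc into the cytosol. PCs hold much zinc in their secretory granules, and ZnT2 (Slc30a2) is known as the transporter that fills these granules. ZnT5, ZnT6 and ZnT7 act in the early secretory pathway, where enzymes of the secretory route receive their zinc, and ZnT1 (Slc30a1) exports zinc at the cell surface.

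Slc30a1 is a known target of MTF-1, the zinc-sensing transcription factor that binds metal response elements. The promoter windows of Slc30a1 and Slc30a2 are shown because these genes had a near-absent and the highest level in the family. Each window runs from 250 bases before to 50 bases after the start of the Ensembl canonical transcript and was read from GRCm39, both on the plus strand. The Slc30a1 window is chr1:191638593-191638892 and the Slc30a2 window is chr4:134069984-134070283. Capitals mark letters that match the core of the metal response element, TGCACNC or TGCGCNC, on either strand.
Slc30a1: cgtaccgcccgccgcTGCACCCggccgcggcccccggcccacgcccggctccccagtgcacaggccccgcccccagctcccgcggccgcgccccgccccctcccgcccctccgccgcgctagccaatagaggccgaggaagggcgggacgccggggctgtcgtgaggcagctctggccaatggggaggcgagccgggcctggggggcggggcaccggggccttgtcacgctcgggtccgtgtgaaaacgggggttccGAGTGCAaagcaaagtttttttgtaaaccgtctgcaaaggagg
Slc30a2: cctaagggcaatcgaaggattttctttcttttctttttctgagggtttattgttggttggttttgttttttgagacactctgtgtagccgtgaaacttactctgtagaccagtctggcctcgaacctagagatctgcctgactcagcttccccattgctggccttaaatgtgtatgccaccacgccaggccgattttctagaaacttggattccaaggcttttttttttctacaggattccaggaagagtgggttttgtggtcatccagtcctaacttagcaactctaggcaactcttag
The Slc30a1 window held 2 matches, TGCACCC from 235 bases before the start and GAGTGCA, a match on the opposite strand, from base 8 of the transcript. The Slc30a2 window held 0. Windows of 5 of the 10 genes held a match, namely Slc30a1, Slc30a4, Slc30a5, Slc30a8 and Slc30a10. Among 21770 protein-coding windows of 300 bases, 27.4% held one. That share was 15% of windows with a GC content of 40 to 50% and 54.0% of windows with 70 to 80%, and the GC content was 74.0% for Slc30a1 and 44.3% for Slc30a2. These matches describe the letters of the windows only.

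The libraries held 6139397 to 12772373 counts, and a count of 0 leaves room for 3 counts, equal to 0.235 to 0.489 CPM (counts relative to the library total) in single libraries. All 14 PC markers were detected and together made up 610000 to 715000 CPM in St_TNF and 636000 to 759000 CPM in ZincDef_TNF. The TMM scaling factors, which adjust libraries for differences in composition, spanned 0.46 to 1.73, a 3.77-fold range. They were 1.73, 1.51 and 0.90 in St_TNF replicates 1, 2 and 3 and 1.46, 0.64 and 0.46 in the ZincDef_TNF replicates. Levels in the diet groups therefore depended on the scaling, and both scalings are given for the tested members. After TMM scaling the PC markers lay at 354000 to 797000 CPM in St_TNF and 437000 to 1650000 CPM in ZincDef_TNF, with overlap. The upper end is more than a whole library, so TMM-scaled CPM are not shares of the library total. By total counts, where 10.3% of all tested genes lay lower in ZincDef_TNF without overlap, so did the summed markers of 3 of 7 other cell type lists. Stem cell markers (4 of 4 detected) lay at 1170 to 3570 CPM in St_TNF and 472 to 565 CPM in ZincDef_TNF. Enteroendocrine markers (10 of 10) lay at 37.5 to 144 and 28.2 to 35.9 CPM. Proliferation markers (5 of 5) lay at 84.3 to 251 and 39.3 to 75 CPM. After TMM scaling all 3 overlapped, with stem markers at 903 to 2070 and 388 to 1160 CPM, enteroendocrine at 41.8 to 95.7 and 19.4 to 78.2, and proliferation at 84.7 to 146 and 51.5 to 98.8. The other lists overlapped under both scalings and lay, by total counts, as follows: goblet (7 of 7) at 7640 to 9010 and 5870 to 12700 CPM, tuft (7 of 7) at 23.2 to 728 and 27.0 to 191, enterocyte (7 of 7) at 19.2 to 132 and 12.9 to 23.0, and immune (5 of 7, with Cd3e and Trac at 0) at 34.2 to 123 and 27.4 to 37.7. The part of these cells in the values of the zinc exporters was not tested, and in bulk RNA fewer cells of a type and less RNA per cell cannot be told apart.

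The first question was which exporters the sorted PCs expressed. Levels of different genes were compared as CPM by total counts per kb of the canonical transcript, over all 6 libraries. Slc30a2 had the highest mean, 11.8 ± 6.38 CPM per kb (SD, n = 6), which placed it 1371st among the 17712 genes ranked by this measure. Slc30a6 followed at 9.26 ± 1.67, then Slc30a7 at 3.74 ± 1.87, Slc30a5 at 3.41 ± 1.81 and Slc30a4 at 3.11 ± 1.13 CPM per kb. Slc30a9 reached 1.36 ± 0.602 and Slc30a1 only 0.109 ± 0.0957 CPM per kb. Slc30a10 had 1 count in all, and Slc30a3 and Slc30a8 had 0 in every library, which allows up to 0.0559 CPM over the 6 libraries together.

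Neighbours in this order were compared within libraries by exact two-sided sign-flip permutation tests, with adjustment over the 9 pairs. The smallest p that 6 libraries allow is 0.03125 before adjustment. An adjusted p under 0.05 would need most of the 9 pairs at this value, and the last 2 pairs, with almost no counts, could not reach it. The order itself was taken from the same 6 libraries. Slc30a2 was above Slc30a6 in 3 of 6 libraries, with a mean difference of 2.50 ± 5.47 CPM per kb (exact p = 0.312, adjusted 0.562), so with this length the leading members did not differ beyond their spread. Slc30a6 exceeded Slc30a7 in 6 of 6 libraries by 5.52 ± 1.01 CPM per kb (exact p = 0.0312, adjusted 0.0938). Slc30a7, Slc30a5 and Slc30a4 stood close together: each was above the next in 4 of 6 libraries, by 0.331 ± 1.31 (exact p = 0.594, adjusted 0.763) and 0.295 ± 0.834 CPM per kb (exact p = 0.438, adjusted 0.656). Slc30a4 exceeded Slc30a9 in 6 of 6 libraries by 1.76 ± 0.768 CPM per kb, and Slc30a9 exceeded Slc30a1 in 6 of 6 by 1.25 ± 0.568 (for each, exact p = 0.0312, adjusted 0.0938). Slc30a1 was above Slc30a10 in 5 of 6 libraries (exact p = 0.0625, adjusted 0.141), and the last 2 pairs had an exact p of 1. With the union of all annotated exons as gene length, Slc30a2 was again first at 10.5 CPM per kb, whereas Slc30a6 had 3.35, Slc30a4 3.03, Slc30a7 2.25, Slc30a5 1.69 and Slc30a9 0.497 CPM per kb. On that length Slc30a2 exceeded Slc30a6 in 6 of 6 libraries, by 7.11 ± 5.31 CPM per kb (exact sign-flip permutation p = 0.0312, adjusted 0.0703). The values of Slc30a5, Slc30a6, Slc30a7 and Slc30a9 moved by more than 1.5 times with the length assumed, and that of Slc30a2 did not. Both lengths count all bases of a gene, also those shared with other genes. For Slc30a2 and Slc30a7, 43.9% of the 75-base stretches of the canonical transcript occur in other genes, and for Slc30a6 0%. How far this moved the order was not tested.

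**Figure D1:**
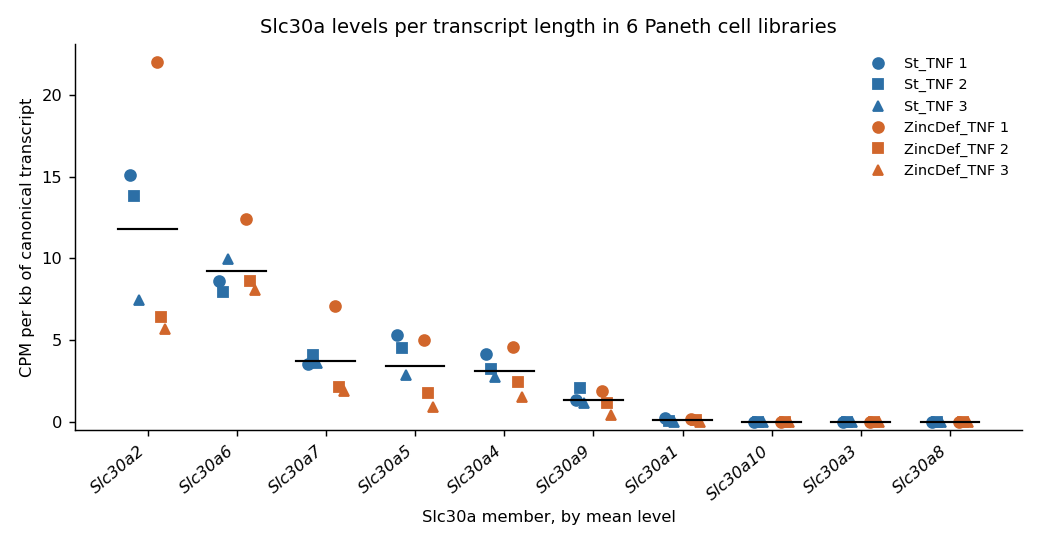
Level of each Slc30a gene in the 6 libraries as CPM by total counts per kb of the canonical transcript (linear axis), with members ordered by mean level. Points are libraries, coloured by diet and shaped by replicate number, and lines are means over the 6 libraries. Slc30a2 and Slc30a6 lead at means of 11.8 and 9.26 CPM per kb, and Slc30a3 and Slc30a8 are at 0.

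Among the vesicle and granule transporters, Slc30a2 carried most of the signal. Slc30a2 lies on chromosome 4 from 134070234 to 134081795, plus strand, with 8 exons in its canonical transcript of 3436 bases. It had 382, 291 and 256 counts in St_TNF and 755, 164 and 251 counts in ZincDef_TNF, or 52.1, 47.4 and 25.7 against 75.6, 22.1 and 19.7 CPM by total counts. ZincDef_TNF replicate 1 was the highest of all libraries and the other two of its group the lowest, so the groups overlapped. After TMM scaling the values were 30.2, 31.6 and 28.6 CPM in St_TNF and 51.9, 34.6 and 42.8 CPM in ZincDef_TNF. On this scale all ZincDef_TNF libraries lay above all St_TNF libraries. The fitted log2 fold change, ZincDef_TNF against St_TNF, was 0.52 (SE 0.35, 95% interval -0.26 to 1.29) with an adjusted p of 0.707 in edgeR's quasi-likelihood test, and -0.09 with total counts only. Slc30a2 overlaps Extl1 on the opposite strand over 1551 exonic bases, and 43.9% of the 75-base stretches of Slc30a2 occur there too. Extl1 had 79, 42 and 39 counts in St_TNF and 63, 10 and 10 in ZincDef_TNF. The sources used here do not state whether counting used strand, so reads of this pair cannot be told apart.

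Slc30a4 (chromosome 2, 122523004 to 122544845, minus strand) encodes ZnT4, a transporter of endosomal and other vesicles. It had 175, 114 and 157 counts in St_TNF and 263, 104 and 112 in ZincDef_TNF. Its TMM-scaled level was 13.8, 12.4 and 17.6 CPM against 18.1, 21.9 and 19.1 CPM, again with no overlap. By total counts the groups overlapped, at 23.8, 18.6 and 15.7 against 26.3, 14.0 and 8.77 CPM. The log2 fold change was 0.43 (SE 0.35, interval -0.34 to 1.2, adjusted p = 0.731 in edgeR), and -0.25 with total counts only. ZnT3 (Slc30a3, chromosome 5, 31241914 to 31265581, minus strand), known from synaptic vesicles, had 0 counts in all libraries. So had ZnT8 (Slc30a8, chromosome 15, 52158949 to 52199194, plus strand), known from the insulin granules of pancreatic beta cells. For these 2 genes no expression was detectable at this depth.

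The early secretory pathway members were all expressed. Slc30a6 (chromosome 17, 74702579 to 74733299, plus strand) encodes ZnT6, which forms a complex with ZnT5. It had 136, 105 and 214 counts in St_TNF and 266, 138 and 223 in ZincDef_TNF. By total counts it was the steadiest of the expressed members, at 18.5, 17.1 and 21.4 against 26.6, 18.6 and 17.5 CPM, with group means of 19.0 ± 2.21 and 20.9 ± 5 CPM (SD, n = 3). After TMM scaling it lay at 10.8, 11.4 and 23.9 against 18.3, 29.1 and 38.1 CPM, where St_TNF replicate 3 exceeded ZincDef_TNF replicate 1. The log2 fold change of 0.89 (SE 0.45, interval -0.10 to 1.87) was the largest in the family under TMM scaling and had an adjusted p of 0.681 in edgeR. Without St_TNF replicate 3 it was 1.40 and with total counts only it was 0.13. Nlrc4, on the opposite strand, overlaps annotated exons of Slc30a6 over 867 bases but shares no 75-base stretch with its canonical transcript. Nlrc4 had 181, 150 and 285 counts in St_TNF and 669, 201 and 323 in ZincDef_TNF.

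Slc30a5 (chromosome 13, 100936795 to 100970006, minus strand) encodes ZnT5, the partner of ZnT6. Its counts were 218, 155 and 161 in St_TNF and 279, 73 and 68 in ZincDef_TNF. The TMM-scaled level was 17.2, 16.8 and 18 CPM in St_TNF, the tightest group of any expressed member, and 19.2, 15.4 and 11.6 CPM in ZincDef_TNF. The groups overlapped, and by total counts they did so too, at 29.7, 25.2 and 16.1 against 27.9, 9.82 and 5.32 CPM. Slc30a5 was the 1 member with a negative log2 fold change under TMM scaling, -0.17 (SE 0.36, interval -0.95 to 0.62, adjusted p = 0.896 in edgeR), and it became 0.04 without ZincDef_TNF replicate 3. With total counts only it was -0.72, where the median of all genes was -0.67.

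Slc30a7 (chromosome 3, 115732621 to 115801060, minus strand) encodes ZnT7 of the Golgi. It had 237, 226 and 328 counts in St_TNF and 640, 143 and 218 in ZincDef_TNF, the highest single count after the 755 of Slc30a2. By total counts the St_TNF libraries were close together at 32.3, 36.8 and 32.9 CPM, while the ZincDef_TNF libraries lay on both sides of them at 64.1, 19.2 and 17.1 CPM. The TMM-scaled values of 18.7, 24.5 and 36.7 against 44.0, 30.1 and 37.2 CPM overlapped. The log2 fold change was 0.48 (SE 0.39, interval -0.37 to 1.34, adjusted p = 0.731 in edgeR), and -0.02 with total counts only. As for Slc30a2, 43.9% of its 75-base stretches occur elsewhere, here in several genes, most of which overlap its exons on the opposite strand. Its longest exon overlap, 2316 bases, is with Dph5 on the opposite strand. Dph5 had 17 to 45 counts per library.

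At the cell surface, Slc30a1 (chromosome 1, 191638808 to 191645361, plus strand) had 9, 2 and 1 counts in St_TNF and 10, 6 and 0 in ZincDef_TNF. That is 1.23, 0.326 and 0.1 against 1.00, 0.808 and 0 CPM by total counts, near the limit of detection in both diets. The means of 0.551 ± 0.596 and 0.603 ± 0.531 CPM (SD, n = 3) gave an exact two-sided permutation p of 1, where 3 against 3 libraries cannot go below 0.1. Slc30a10 (chromosome 1, 185186973 to 185200959, plus strand), a manganese exporter of the cell surface, had its 1 count in St_TNF replicate 1. Slc30a9 (chromosome 5, 67464285 to 67515805, plus strand), a member linked to mitochondrial zinc, had 58, 74 and 66 counts in St_TNF and 110, 50 and 31 in ZincDef_TNF. Its TMM-scaled values of 4.59, 8.03 and 7.38 against 7.57, 10.5 and 5.29 CPM overlapped, as did those by total counts, 7.9, 12.1 and 6.61 against 11, 6.73 and 2.43 CPM. The log2 fold change was 0.22 (SE 0.43, interval -0.71 to 1.16, adjusted p = 0.881 in edgeR), -0.40 with total counts and 0.00 without ZincDef_TNF replicate 2.

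The second question was whether the exporters differed between the diets. None of the 6 members that passed the filter was called at an adjusted p under 0.05, and neither was any gene of the 9749 tested (0%), where edgeR's smallest adjusted p was 0.681. Before adjustment edgeR gave 645 genes with a p under 0.05 (6.62%), and 0 of the 6 members were among them. DESeq2, which tested a larger set of 17776 genes, called 6 of them, 0 of these members, and gave 931 with an unadjusted p under 0.05. The smallest unadjusted p of a member was 0.0726, for Slc30a6. With TMM scaling 5 of the 6 members had a log2 fold change above 0, against 50% of all genes, and their median was 0.46 beside 0.00 over all genes. With total counts 1 of 6 was above 0, against 13.1% of all genes, and the median was -0.17 beside -0.67. The signs for Slc30a2, Slc30a4, Slc30a7 and Slc30a9 thus depended on the scaling, while Slc30a6 stayed above 0 and Slc30a5 below 0. The median of the members lay above that of all genes under both scalings. All 6 values lay inside the range of -1.21 to 1.07 that held the 5th to 95th percentile of genes. In TMM-scaled CPM 2 of 6 members, Slc30a2 and Slc30a4, lay higher in ZincDef_TNF without overlap, as did 3.51% of all genes. The other tested members overlapped. By total counts 0 of 6 lay lower without overlap, compared with 10.3% of all genes.

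**Figure D2:**
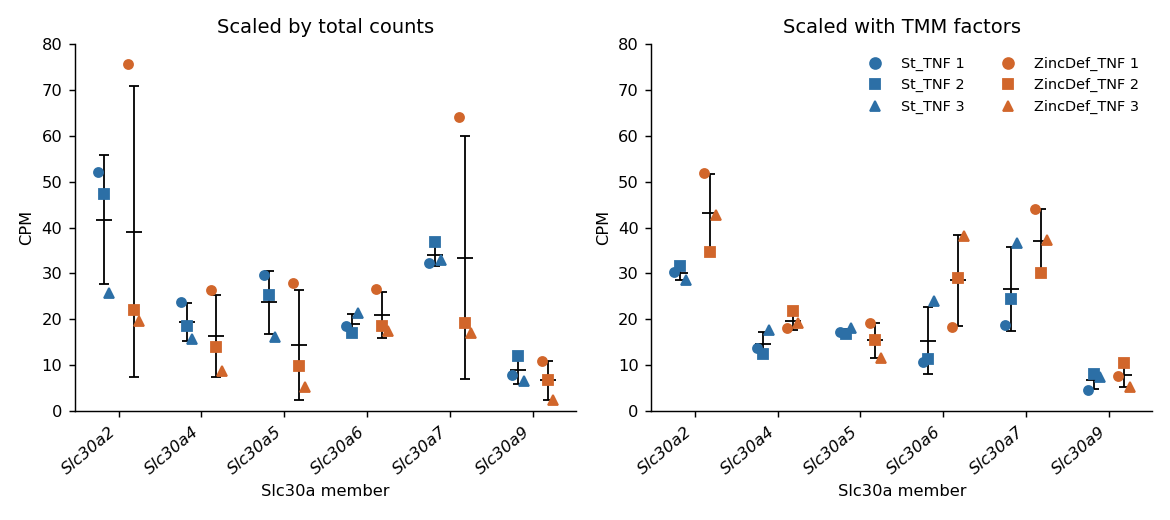
CPM of the 6 tested members in each library, by total counts and after TMM scaling. Points are libraries, coloured by diet, and dashes with error bars are group means with SD (n = 3). Slc30a2 overlaps between the diets by total counts (19.7 to 75.6 against 25.7 to 52.1 CPM) and does not after TMM scaling (34.6 to 51.9 against 28.6 to 31.6 CPM).

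**Figure D3:**
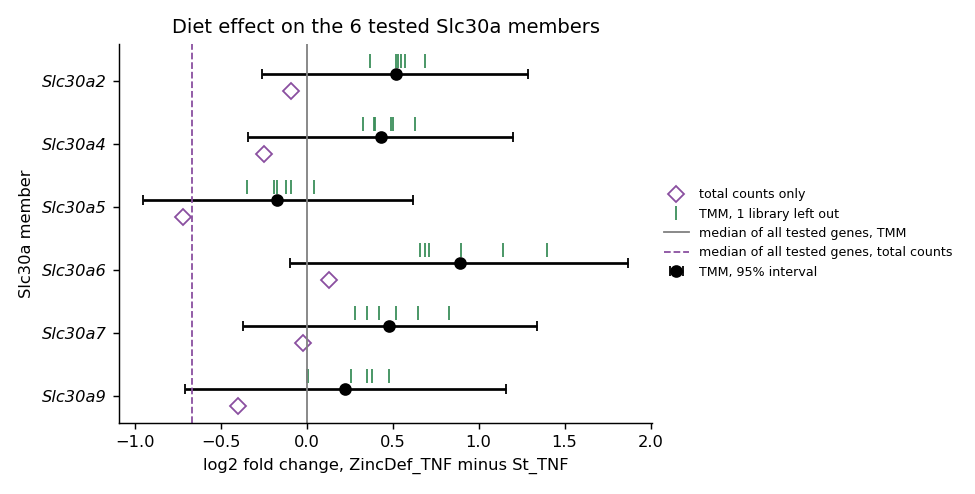
Log2 fold change of the 6 tested members, ZincDef_TNF against St_TNF, with 95% intervals from edgeR under TMM scaling, with green ticks for the values when 1 library is left out and diamonds for the values with total counts only. Vertical lines mark the median of all tested genes, 0.00 with TMM and -0.67 with total counts. Each interval includes 0.

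Measures inside a library do not depend on the scaling between libraries. Slc30a2 made up 39.4, 38.6 and 26.8% of the family's summed level per kb in St_TNF and 41.4, 28.3 and 30.7% in ZincDef_TNF, so the ranges overlapped. Over the 6 libraries the vesicle and granule members held 43.8 ± 6.21% of the family per kb of canonical transcript, the early secretory members 51.8 ± 6.59%, Slc30a9 4.11 ± 1.28% and the surface members 0.323 ± 0.294% (SD, n = 6). Per kb of all annotated exons the order of the first 2 turned, with 61.6 ± 5.14% for the vesicle and granule members and 35.6 ± 5.29% for the early secretory members. The share of Slc30a6 was 22.4, 22.2 and 35.7% in St_TNF and 23.3, 38.0 and 43.5% in ZincDef_TNF. Slc30a5 held 13.8, 12.7 and 10.4% in St_TNF and 9.41, 7.75 and 5.12% in ZincDef_TNF, without overlap. This difference of Slc30a5 was picked out after the values were seen and was not tested. Within each diet the share of Slc30a5 fell in the order of the TMM factors. The part of library composition in this share was not tested, and no background of such shares over other genes was computed.

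The count of Slc30a2 was also set against that of Mmp7, the zinc protease of PC granules that activates alpha-defensins. Per 1000 Mmp7 counts there were 9.01, 10 and 5.34 Slc30a2 counts in St_TNF and 14.6, 3.34 and 2.71 in ZincDef_TNF. ZincDef_TNF replicate 1 was above every St_TNF library and the other two below every one. The mean log2 ratio was -7.00 ± 0.49 in St_TNF and -7.62 ± 1.33 in ZincDef_TNF (SD, n = 3), a difference of -0.62 (exact two-sided permutation p = 0.5). It was -1.38 without ZincDef_TNF replicate 1, -0.32 without ZincDef_TNF replicate 2 and -0.16 without ZincDef_TNF replicate 3. The 3 libraries with the lowest TMM factors, 0.46, 0.64 and 0.90, had the lowest ratios in the same order, and the part of library composition was not tested for this ratio. With Lyz1, the lysozyme of PC granules, in place of Mmp7 the difference was -0.60.

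The ratio of Slc30a6 to Slc30a5, partners in 1 transporter complex, was chosen after their values were seen. It was 0.624, 0.677 and 1.33 in St_TNF and 0.953, 1.89 and 3.28 in ZincDef_TNF. St_TNF replicate 3 exceeded ZincDef_TNF replicate 1, and the log2 ratio differed by 1.13 (exact two-sided permutation p = 0.2, n = 3). The order of the 6 libraries by this ratio was the reverse of their order by TMM factor in all 6, and the part of library composition in the ratio was not tested.

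**Figure D4:**
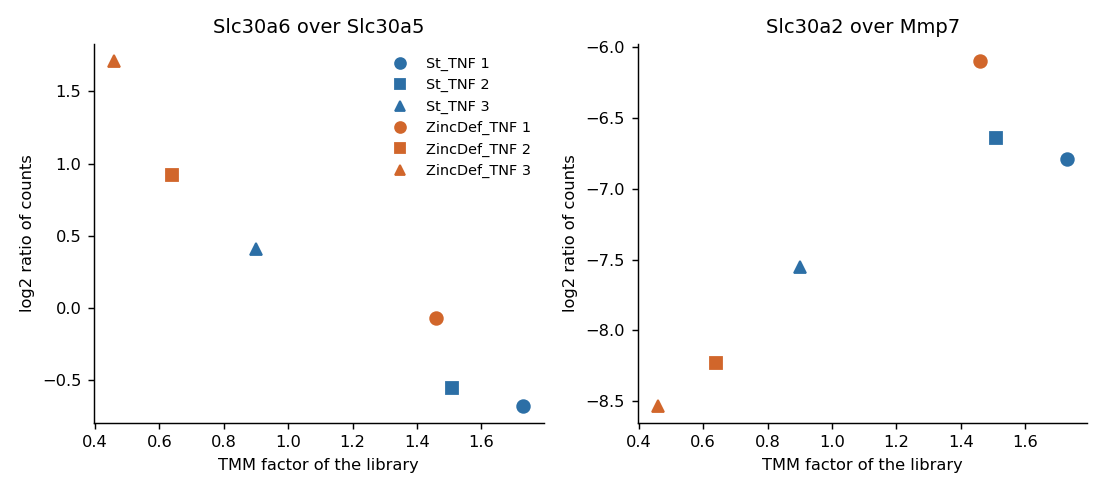
Log2 ratio of counts of Slc30a6 to Slc30a5 and of Slc30a2 to Mmp7 in each library, against the TMM factor of the library. Points are libraries, coloured by diet and shaped by replicate number. Slc30a6 to Slc30a5 runs from -0.68 at the highest factor (1.73) to 1.71 at the lowest (0.46), and the 3 libraries with the lowest factors have the lowest ratios of Slc30a2 to Mmp7.

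Other zinc genes were read from the same fit. Of 20 genes of zinc handling (the ZIP importers, the metallothioneins, the transcription factor Mtf1 and Tmem163), 16 were tested, 0 were called and 2 had an unadjusted p under 0.05, beside 6.62% of all genes. With TMM scaling 10 values were above 0 and 6 below, beside 50% of all genes above 0, and the median was 0.25 beside 0.00. With total counts 4 were above and 12 below, beside 13.1% of all genes above 0, and the median was -0.26 beside -0.67. The highest value belonged to Mt3, a metallothionein, which had 9, 6 and 8 counts in St_TNF and 14, 11 and 11 in ZincDef_TNF (log2 fold change 1.13, SE 0.66, adjusted p = 0.681 in edgeR). The lowest belonged to Slc39a13, the importer ZIP13, with 49, 26 and 33 against 31, 3 and 3 counts (log2 fold change -1.53, SE 0.63, adjusted p = 0.681 in edgeR). For Slc39a13 the ZincDef_TNF libraries other than replicate 1 lay far below all others. Mt1 and Mt2, the other tested metallothioneins, had log2 fold changes of 0.16 (SE 0.59, adjusted p = 0.943) and 0.95 (SE 0.86, adjusted p = 0.755) in edgeR. With total counts the values were 0 for Mt1, 0.81 for Mt2 and 0.31 for Mt3.

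Of 14 enzymes that take up zinc in the secretory pathway, 8 were tested and 0 were called. With TMM scaling 4 were above and 4 below 0, with a median of 0.00, as over all genes. With total counts 1 was above and 7 below, near the 13.1% above 0 of all genes, and the median was -0.52 beside -0.67. Mmp7 had the highest value. It had 42411, 29105 and 47955 counts in St_TNF and 51635, 49078 and 92590 in ZincDef_TNF (log2 fold change 1.32, SE 0.65, adjusted p = 0.681 in edgeR), and its value with total counts was 0.31. Anpep, aminopeptidase N of the brush border, had the lowest, with 1048, 611 and 271 against 806, 91 and 107 counts (log2 fold change -0.94, SE 0.54, adjusted p = 0.681 in edgeR). Anpep thus had its highest counts in replicates 1 of both diets.

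**Figure D5:**
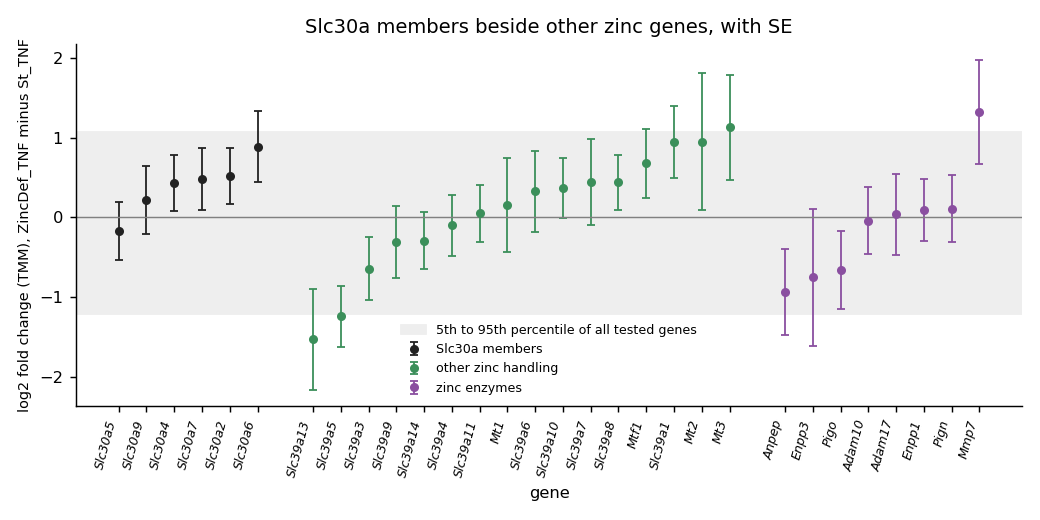
Log2 fold change, ZincDef_TNF against St_TNF under TMM scaling, of the tested Slc30a members, the 16 tested genes of zinc handling and the 8 tested zinc enzymes. Error bars are 1 SE, and the grey band spans the 5th to 95th percentile of all 9749 tested genes. None was called at an adjusted p under 0.05, and values span -1.53 (Slc39a13) to 1.32 (Mmp7).

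Among the 9748 other tested genes, those whose TMM-scaled log2 CPM followed Slc30a2 most closely over the 6 libraries were Nfkbiz (Pearson r = 0.977), Zfp809 (0.975) and Pals1 (0.975), and 19 genes had r above 0.9. Nfkbiz, an NF-kB regulator, lay at 4.35, 3.8 and 4.25 CPM in St_TNF and 19.1, 5.27 and 11.4 CPM in ZincDef_TNF. ZincDef_TNF replicate 1 was the highest library for Nfkbiz and for Slc30a2. Among the family, r with Slc30a2 was 0.67 for Slc30a7, 0.42 for Slc30a4, 0.35 for Slc30a6, 0.02 for Slc30a9 and -0.16 for Slc30a5. These correlations describe 6 points that share libraries and scaling factors.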

How the data were processed

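Per the labels, libraries of sorted PC RNA were run single-end on the Element AVITI. The authors deposited raw counts per gene in 1 table for the 6 libraries. The submitters' processing notes list FastQC, Trimmomatic 0.39, STAR 2.7.10a and DESeq2, and the build mm39 (GRCm39). The sources used here do not name the counting program, its strand setting or how reads with several matches were handled. Reads from overlapping genes on opposite strands can therefore not be told apart, and a discarded multi-match read lowers the level of genes with copies elsewhere.

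Gene positions, exons and lengths were looked up by Ensembl identifier in GENCODE M39 (GRCm39), and 54749 of 55414 identifiers matched. Counts were tested in R 4.3.3 with edgeR 4.0.16 (quasi-likelihood F test, TMM factors), the filterByExpr filter and diet as the only term. Two-sided p-values were Benjamini-Hochberg adjusted over the 9749 genes in the fit, and 0.05 was the threshold. The SE was the absolute log2 fold change divided by the square root of F. Log2 CPM for correlations used a prior count of 2. Members below the filter and ratios were compared by exact permutation tests. Overlap of genes was measured on exons and on stretches of 75 bases of the canonical transcript. The limits for a count of 0 include only counting error, because reads that carry no molecular identifier can be copies of 1 molecule.

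Libraries of the same group differed with a chi-square of 15.3 to 168 per degree of freedom, so each library was counted as 1 sample. The fit was also run on simulated data, but no outcome is given here, so that run does not show how small a change could be found. The 10 members and the lists of zinc genes and markers were chosen with earlier results of these data known. Genes were named by rule: all members, called genes and both range ends of the other zinc lists, Mmp7 as the reference, and the 3 genes most like Slc30a2. Opposite-strand neighbours, Mt1 and Mt2, the ratio of Slc30a6 to Slc30a5 and the share of Slc30a5 were added after the values were seen.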

Additional observations from a re-analysis of the deposited data

How the results depend on the processing

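No member was called under any of the 11 alternatives, which were DESeq2 1.42.0, RLE factors, total counts only, no filter on low counts, a replicate block and leaving out each library. With total counts only, the log2 fold changes of Slc30a2 (-0.09), Slc30a4 (-0.25), Slc30a7 (-0.02) and Slc30a9 (-0.40) took the opposite sign. Leaving out 1 library gave 0.37 to 0.69 for Slc30a2, 0.33 to 0.63 for Slc30a4, -0.35 to 0.04 for Slc30a5, 0.66 to 1.40 for Slc30a6, 0.28 to 0.83 for Slc30a7 and 0.00 to 0.48 for Slc30a9, and the smallest adjusted p of a member was 0.149, for Slc30a6 without ZincDef_TNF replicate 1. The difference in mean CPM of Slc30a1, 0.052, ranged from -0.173 to 0.39. Over all genes DESeq2 called 6 of 17776, and the fit without the filter called 76 of 17790. With 1 library left out 0 to 28 were called, where the 28, of 10151 tested, came without St_TNF replicate 3. The median of the zinc handling list was -0.26 and that of the zinc enzymes -0.52 with total counts, and 0.07 to 0.47 and -0.46 to 0.24 when 1 library was left out. These alternatives for the 2 lists, Slc30a1 and the ratio of Slc30a6 to Slc30a5 (0.70 to 1.59 on the log2 scale), and the exon union for family shares and TMM scaling for markers, were chosen after seeing the data. The number of neighbouring pairs in which the same member was higher in every library was 3, and 3 to 4 under the alternatives, with Slc30a2 first in each order. The log2 ratio of Slc30a2 to Mmp7 kept its sign, from -1.38 to -0.16. The cause of these shifts was not tested. Slc30a1, Slc30a3, Slc30a8 and Slc30a10 did not pass the filter on low counts. For these genes too little depth and low or absent expression cannot be told apart.

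Same-numbered libraries of the 2 diets correlated at 0.15, -0.06 and 0.25 in their deviations from the group means, and 3 of 6 libraries correlated best with their own number, so the numbers were not taken as pairs. With the replicate number as a block, 0 genes and 0 members were called, 962 genes had an unadjusted p under 0.05 in place of 645, and 5 of 6 members stayed above 0. The block changed no call.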
